A study of Mus musculus with 35 samples.

Results

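Eng, Aplnr, Atxn1, Slc43a3, Osbpl3 and Scmh1 are 6 of the 24454 genes measured in mouse models of leukaemia with 3 different NUP98 fusions, and each of them set 1 untreated fusion model apart from the others. They were chosen on the untreated libraries, as genes that differed strongly between the 3 fusions there, and all 6 passed the filter on low values that left 12682 genes for testing. The question followed here is whether doxycycline, under which the fusion transcript nearly vanished, removed the difference. Since the untreated libraries chose the genes, every comparison of the members with an untreated library is given as a description with no test. The doxycycline libraries played no part in the choice, and differences among them were tested with limma across all genes, with Benjamini-Hochberg adjustment. The fit estimates 1 spread per gene from all 33 libraries, so the untreated ones enter these p-values through the spread. Comparisons between fusions and between days were also run with only the groups compared, without the untreated libraries.

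All animals were C57BL/6 mice that had received a transplant, and the RNA came from GFP/CD45.2+ cells sorted from bone marrow. The genotypes were regulatable expression of NUP98-DDX10, NUP98-JARID1A or NUP98-NSD1, and each fusion had 4 untreated libraries, 3 libraries after 3 days of doxycycline at 4 mg/ml and 3 after 5 days. By their titles 1 of the 4 untreated libraries of each fusion belongs to day 3 and the other 3 to day 5, and they are pooled here. A further 3 libraries are titled controls, carry the names of all 3 fusions in their genotype label and are labelled untreated. The labels name neither the promoter that drives the transgene nor how many separate leukaemias stand behind a fusion, so a fusion and the leukaemia that carries it cannot be told apart.

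NUP98 is a nucleoporin, a protein of the nuclear pore, and in these leukaemias its front part is fused to a partner protein. NSD1 is a histone methyltransferase, JARID1A is a histone demethylase whose PHD finger reads methylated histone tails, and DDX10 is an RNA helicase. NUP98 fusions are known for sustained expression of homeobox genes in blood progenitors. The 6 members have unrelated functions. Endoglin (Eng) is a co-receptor for transforming growth factor beta and bone morphogenetic proteins, best known on endothelium and also present on early blood cells. The apelin receptor (Aplnr) is a G protein-coupled receptor known from vessel and heart development. Ataxin-1 (Atxn1) is a nuclear protein that works with the transcriptional repressor capicua, and its polyglutamine expansion causes a spinocerebellar ataxia. Slc43a3 is a membrane transporter of purine nucleobases, Osbpl3 is an oxysterol-binding protein that acts at contacts between membranes, and Scmh1 is a Polycomb group protein.

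The transgenes were read directly in the libraries. The NUP98-DDX10 transcript lay between 9003 and 14121 normalized counts in its untreated libraries and between 3.19 and 8.01 in its doxycycline libraries. The NUP98-JARID1A transcript lay between 3042 and 3489 untreated and between 60.2 and 100.3 at day 5. The NUP98-NSD1 transcript lay between 52599 and 58498 untreated and between 40.3 and 58.1 at day 5. The eGFP transcript lay between 7445 and 14453 in untreated NUP98-DDX10 and between 2.15 and 4.01 at day 5. In NUP98-JARID1A it lay between 9450 and 12506 and between 305 and 340. In NUP98-NSD1 it lay between 15335 and 17735 and between 11.4 and 19.7. In the controls it lay between 13.9 and 210. Whether its loss changed which cells were sorted was not tested. Normalized counts are reads in a gene divided by a size factor per library, so they compare libraries for 1 gene and not genes with each other. Reads in genes per library ran from 12043487 to 28903870. The leukocyte genes Ptprc, Spi1, Mpo, Itgam and Csf1r were read in every fusion library, with Ptprc between 4949 and 13234. Of 14 endothelial markers, Kdr, Tek, Tie1, Emcn, Cldn5, Esam, Robo4, Sox17 and Sox18 stayed under 10 in every fusion library. Control replicate 3 stood apart, with a chi-square per degree of freedom of 369 and 385 against the other 2 controls, which gave 13.0 against each other. The NUP98-JARID1A transcript was read in the controls at 2.52, 72.0 and 18.2, and the other 2 fusion transcripts at 0. In the control libraries the summed erythroid markers ran from 4195 to 26801, against 242 to 1040 over the fusion libraries. The globin genes Hbb-bt, Hbb-bs, Hba-a1 and Hba-a2 stayed under 10 in every library. Summed eosinophil and basophil markers ran from 4894 to 11533 in the controls and from 39.4 to 974 in the fusions. Summed megakaryocyte markers ran from 283 to 488 and from 3.42 to 72.0. The leukocyte sum ran from 40503 to 119554 in the controls. It and the endothelial, stromal and stem cell sums overlapped the fusion libraries.

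The RefSeq promoter table (GRCm38.p6, 250 bases before to 50 after a start) held windows for Eng, Osbpl3 and Scmh1, which are shown. It held none for Aplnr, Atxn1 or Slc43a3, so the windows do not allow a comparison of the members by direction. Capitals mark GGGCGG or its reverse complement, the letters of the SP1 GC box. It was searched on both strands, as were the ETS core written as CCGGAA, the RUNX letters TGTGGT, the MEIS letters TGACAG, the GATA letters AGATAA and the E-box written as CAGCTG.
Eng, chr2:32646345-32646644, plus strand: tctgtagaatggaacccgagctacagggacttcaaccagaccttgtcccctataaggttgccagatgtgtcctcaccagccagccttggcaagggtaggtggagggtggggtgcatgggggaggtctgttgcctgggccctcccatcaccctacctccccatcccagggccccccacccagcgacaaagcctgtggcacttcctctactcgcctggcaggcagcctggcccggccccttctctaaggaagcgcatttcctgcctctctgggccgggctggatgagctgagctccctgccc
Osbpl3, chr6:50456121-50456420, minus strand: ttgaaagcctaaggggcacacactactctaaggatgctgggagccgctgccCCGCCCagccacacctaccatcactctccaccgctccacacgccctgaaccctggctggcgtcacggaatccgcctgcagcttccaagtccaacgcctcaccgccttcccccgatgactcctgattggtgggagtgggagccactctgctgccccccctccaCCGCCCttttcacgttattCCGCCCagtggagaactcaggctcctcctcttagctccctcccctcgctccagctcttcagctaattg
Scmh1, chr4:120405098-120405397, plus strand: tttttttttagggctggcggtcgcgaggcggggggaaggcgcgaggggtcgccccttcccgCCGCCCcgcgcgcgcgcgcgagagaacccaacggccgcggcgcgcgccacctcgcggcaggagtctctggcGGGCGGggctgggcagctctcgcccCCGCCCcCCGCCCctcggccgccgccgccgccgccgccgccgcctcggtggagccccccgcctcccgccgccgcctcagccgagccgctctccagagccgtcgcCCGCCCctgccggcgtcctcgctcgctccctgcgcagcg
The Osbpl3 window held 3 GC boxes and 14 CpG dinucleotides, and the Scmh1 window held 5 GC boxes and 54 CpG dinucleotides. The Eng window held 6 CpG dinucleotides and none of the 6 motifs. Over the table's 32851 windows the median was 7 CpG dinucleotides, and 35.7% held a GC box, 14.9% the ETS core, 16.8% the RUNX letters, 19.2% the MEIS letters, 11.2% the GATA letters and 16.3% the E-box. The table lists a second Scmh1 window at chr4:120452994-120453293 with 0 CpG dinucleotides and 1 match to the GATA letters. A match is a stretch of letters, not a measured binding site.

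**Figure D1:**
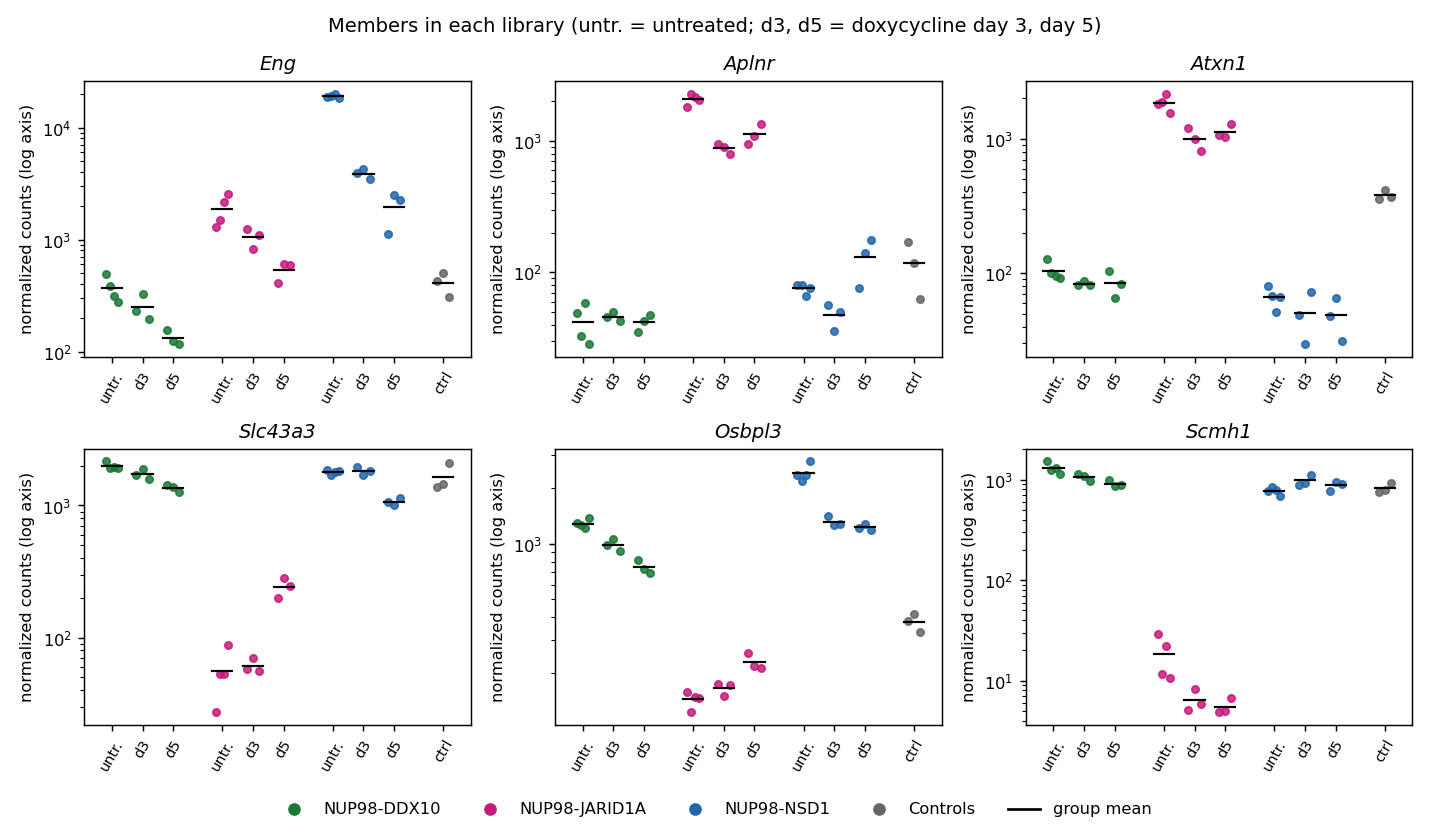
Normalized counts (log axis) of the 6 members in each of the 33 libraries, by fusion and state (untr., untreated; d3 and d5, doxycycline day 3 and day 5; ctrl, controls); points are libraries and black lines group means. The NUP98-NSD1 points of Eng and the NUP98-JARID1A points of the other 5 genes stay apart from both other fusions in every state.

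Eng (Entrez 13805, chromosome 2, 32646595 to 32682669, GRCm38.p6) marked NUP98-NSD1. Its untreated libraries there read 18769, 19259.9, 20141 and 18272 normalized counts, those of NUP98-JARID1A 1294, 1498, 2155 and 2575, and those of NUP98-DDX10 496, 386, 314 and 275. The 3 fusions did not overlap, and the NUP98-NSD1 mean was 17.0 times the mean of the other fusions. At day 3 the NUP98-NSD1 libraries read 3927, 4266 and 3463, and at day 5 1128, 2506 and 2279. By day 5 the mean was 10.3% of the untreated mean in NUP98-NSD1, 28.5% in NUP98-JARID1A and 35.8% in NUP98-DDX10, so Eng was lower under doxycycline in every fusion and furthest down in the one it marked. In a bulk sample, fewer cells that express a gene and less RNA per cell cannot be told apart.

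Some myeloid and progenitor markers moved in the same libraries. In NUP98-NSD1, Itgam, a myeloid integrin gene, read 4218 to 6262 untreated and 16138 to 19528 at day 5. The stem cell factor receptor gene Kit read 554 to 807 untreated and 62.4 to 104 at day 5. Cd34, a progenitor marker, read 3542 to 5622 and 821 to 1415 in these states. Of 8 leukocyte and myeloid markers 4 rose and 2 fell in NUP98-NSD1 from untreated to day 5 (limma, adjusted p under 0.05), beside 13.5% and 11.9% of all genes. Their sum lay between 56921 and 71809 untreated and between 61889 and 73644 at day 5. Of 7 stem cell markers 4 were tested and 2 fell. Their sum, mostly Cd34, lay between 4219 and 5736 untreated and between 894 and 1438 at day 5. Procr, Mecom, Hlf, Slamf1 and Fgd5 stayed under 10. In NUP98-JARID1A, Itgam read 15843 to 19804 untreated and 36095 to 44274 at day 5, and Kit 1700.4 to 2616 and 241 to 295. The median log2 change of the 8 leukocyte and myeloid markers was 0.63 in NUP98-JARID1A and -0.24 in NUP98-DDX10, against -0.02 and 0.0 over all genes. Their sum in NUP98-JARID1A lay between 93856 and 107360 untreated and between 107497 and 146208 at day 5. In NUP98-DDX10 it lay between 84793 and 108602 and between 64773 and 73719. The part of these markers in the values of the 6 genes was not tested.

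Eng nevertheless remained highest in NUP98-NSD1. At day 5 NUP98-JARID1A read 406, 604 and 597 and NUP98-DDX10 155, 124 and 116, and the order NUP98-NSD1, NUP98-JARID1A, NUP98-DDX10 held with no overlap. On the log2(value + 1) scale, NUP98-NSD1 lay 2.93 ± 0.24 (SE) above the mean of the other 2 fusions at day 3 and 2.82 ± 0.24 above it at day 5 (limma, adjusted p = 1.38e-10 and 2.48e-10). NUP98-NSD1 was higher by this test for 23.3% of all genes at day 3 and 22.1% at day 5. Under doxycycline NUP98-DDX10, the lowest, lay slightly farther from the mean of its other 2 fusions than NUP98-NSD1 did. Its differences were -3.03 ± 0.24 at day 3 and -2.91 ± 0.24 at day 5 (limma, adjusted p = 1.50e-10 and 2.74e-10). Of the 12682 genes, 1754 and 2958 were lower in NUP98-DDX10 by this test. From day 3 to day 5 Eng fell by 1.06 ± 0.27 in NUP98-NSD1 (limma, adjusted p = 0.0121) and by 0.98 ± 0.27 in NUP98-JARID1A (adjusted p = 0.0111), while the difference in NUP98-DDX10 was -0.90 ± 0.27 (adjusted p = 0.110). Such calls in either direction covered 10.6%, 19.9% and 0.93% of all genes. In NUP98-JARID1A 1210 genes were higher and 1316 lower at day 5, and after quantile normalization 786 and 1341, and in NUP98-DDX10 55 and 63 became 32 and 62. The NUP98-NSD1 call was lost without replicate 2 of day 3 (0.0524), without replicate 1 of day 5, the lowest library at 1128 (log2 difference -0.70, 0.0946), and with only the groups compared (0.0810). The NUP98-JARID1A call was lost without replicate 1 of day 3 (0.0593), without replicate 1 of day 5 (0.0534) and with only the groups compared (0.0619). The limma test of whether the change from day 3 to day 5 differed between the fusions gave an adjusted p of 0.986 for Eng, with 1.85% of all genes called by it. Against the control libraries, which read 427, 505 and 306, Eng at day 5 was higher in NUP98-NSD1 by 2.20 ± 0.27 (limma, adjusted p = 9.73e-08) and lower in NUP98-DDX10 (-1.62 ± 0.27, adjusted p = 8.85e-06), and in NUP98-JARID1A the difference was 0.38 ± 0.27 (adjusted p = 0.217). Against the controls, 58.9% of genes were called in NUP98-NSD1, 64.8% in NUP98-DDX10 and 67.3% in NUP98-JARID1A. Quantile normalization moved the median of all genes in these comparisons from -0.09, -0.09 and -0.06 to 0.20, 0.12 and 0.16 on the log2 scale in NUP98-DDX10, NUP98-JARID1A and NUP98-NSD1. The genes called higher and lower went from 3693 and 4529 to 5213 and 3439 in NUP98-DDX10, from 3876 and 4657 to 4772 and 3737 in NUP98-JARID1A and from 3456 and 4015 to 4764 and 3092 in NUP98-NSD1, while no member changed sign.

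The other genes of the pathway that endoglin serves were taken from a list of 35 receptors, ligands, SMAD proteins and related genes, of which 24 were tested. In untreated libraries 16 of the 24 differed between the fusions, a share close to the 69.8% of all genes called by the same test, and at day 5 21 of 24 did, against 70.1% of all genes. The median of the largest untreated difference was 0.90 on the log2 scale, against 0.57 over all genes. Smad1, a signal carrier of bone morphogenetic protein receptors, was nearly unread in NUP98-JARID1A, with 0 to 1.81 normalized counts untreated and 0.61 to 2.23 at day 5. In NUP98-DDX10 and NUP98-NSD1 untreated it read 444 to 605 and 439 to 539.6. Its log2 difference in NUP98-JARID1A was -8.38 untreated and -8.02 at day 5 (limma, adjusted p = 1.33e-20 and 3.40e-18). With so few reads that size is set by the pseudocount, and with 10 in place of 1 it was -5.61 and -5.67. Acvr1, a type I receptor of the same branch, was also lowest in NUP98-JARID1A, at 0 to 1.93 untreated against 16.1 to 27.2 in NUP98-DDX10 and 209 to 266 in NUP98-NSD1. Its difference was -5.39 untreated and -4.60 at day 5 (adjusted p = 1.36e-13 and 1.68e-10), or -2.99 in both states with the pseudocount of 10. Smad1 and Acvr1 passed the filter through the fusions in which they are read. Smad7, which inhibits the pathway, was higher in NUP98-JARID1A, by 2.23 untreated and 1.03 at day 5 (adjusted p = 1.06e-11 and 6.08e-05). Of the 14 endothelial markers 6 were tested. Of these, 2 rose and 3 fell in NUP98-NSD1 between untreated and day 5, beside 13.5% and 11.9% of all genes. Pecam1, also a leukocyte gene, read 3051 to 3412 untreated and 616 to 858 at day 5. Egfl7 read 76.0 to 87.2 and 9.84 to 21.9 and Plvap 6.68 to 14.1 and 1.08 to 3.81 in the same states. Cdh5 read 6.25 to 18.8 and 31.4 to 44.1 and Vwf 3.42 to 26.7 and 30.5 to 40.0 in the same states. The sum over the 14, which is mostly Pecam1, ran from 3186 to 3540 untreated and from 709 to 945 at day 5. The 9 markers named above stayed under 10. The part of these markers in the Eng values was not tested.

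Aplnr (Entrez 23796, chromosome 2, 85136360 to 85139923) marked NUP98-JARID1A. It read 1826, 2296, 2148 and 2051 normalized counts in the untreated NUP98-JARID1A libraries, 79.5, 80.7, 66.1 and 76.0 in NUP98-NSD1 and 49.0, 32.6, 58.2 and 28.4 in NUP98-DDX10. The NUP98-JARID1A libraries stood clear of all others, with a mean 35.4 times that of the other fusions. At day 3 NUP98-JARID1A read 945, 904 and 794 and at day 5 946, 1085 and 1336, which is 42.4% and 54.0% of its untreated mean. NUP98-NSD1 read 56.4, 35.9 and 49.9 at day 3 and 76.4, 141 and 175 at day 5, and NUP98-DDX10 read 35.1, 43.0 and 47.1 at day 5.

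The Aplnr difference was smaller under doxycycline but far from gone. NUP98-JARID1A was above the others by 4.22 ± 0.25 at day 3 and 3.93 ± 0.25 at day 5 on the log2 scale (limma, adjusted p = 1.52e-13 and 7.66e-13). NUP98-JARID1A was higher by this test for 26.6% and 28.5% of all genes. From day 3 to day 5 Aplnr rose in NUP98-NSD1 by 1.39 ± 0.29 (limma, adjusted p = 0.00241), although the lowest day 5 library, at 76.4, was within the untreated range. That call was lost with only the groups compared (0.0568). In NUP98-JARID1A the difference was 0.34 ± 0.29 (adjusted p = 0.446). The change from day 3 to day 5 had an adjusted p of 0.0802 for a difference between the fusions, which passed at 0.0130 without replicate 1 of NUP98-NSD1 day 5 and otherwise ran up to 0.206. Day 5 NUP98-JARID1A was 3.34 ± 0.29 above the controls (adjusted p = 1.00e-10), whose libraries read 172, 119 and 62.3, and NUP98-DDX10 was below them (-1.37 ± 0.29, adjusted p = 1.67e-04). The NUP98-NSD1 difference from the controls was 0.19 ± 0.29 (adjusted p = 0.594), and its sign turned without control replicate 3 (-0.21) and without replicate 3 of day 5 (-0.06).

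The ligand of the receptor, Apln, was read at few counts, 5.05 to 15.7 in untreated NUP98-JARID1A, 3.78 to 8.14 in NUP98-DDX10 and 2.51 to 4.69 in NUP98-NSD1. At day 5 the ranges of the fusions overlapped, 2.43 to 8.91 in NUP98-JARID1A, 2.20 to 5.38 in NUP98-DDX10 and 1.97 to 11.8 in NUP98-NSD1. A difference between the fusions did not pass in either state (limma, adjusted p = 0.0531 untreated and 0.513 at day 5). Of the 8 listed apelin system genes 6 were tested, and 3 differed between the untreated fusions, beside 69.8% of all genes. The arrestin gene Arrb1, whose product binds activated receptors, was lowest in NUP98-DDX10, with log2 differences of -0.75 untreated and -1.01 at day 5 (limma, adjusted p = 1.09e-06 and 1.13e-07). NUP98-DDX10 was lower by this test for 17.4% of all genes untreated and 23.3% at day 5. Arrb2 was higher in NUP98-JARID1A by 0.98 and 1.18 (adjusted p = 9.69e-04 and 6.09e-04).

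Atxn1 (Entrez 20238, chromosome 13, 45549755 to 45964991) was the second gene high in NUP98-JARID1A, and of the 6 the one whose log2 difference had changed least by day 5, although at day 3 that of Slc43a3 had changed less. Untreated NUP98-JARID1A libraries read 1823, 1882, 2167 and 1563, those of NUP98-DDX10 127, 100.01, 95.1 and 92.7 and those of NUP98-NSD1 80.4, 67.6, 51.8 and 66.8, a 21.8-fold ratio of the first mean to the others. NUP98-JARID1A read 1199, 993 and 812 at day 3 and 1060.2, 1033 and 1291 at day 5, or 53.9% and 60.7% of the untreated mean. The other fusions read 104, 65.6 and 83.1 in NUP98-DDX10 and 48.4, 65.7 and 31.5 in NUP98-NSD1 at day 5, which overlapped their untreated libraries, and no library of either came near the NUP98-JARID1A libraries.

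The log2 difference of NUP98-JARID1A was 3.95 ± 0.21 at day 3 and 4.15 ± 0.21 at day 5 (limma, adjusted p = 2.30e-14 and 7.84e-15), beside 4.47 ± 0.19 untreated. No fusion changed from day 3 to day 5 by the test, with differences of -0.01, 0.18 and -0.03 ± 0.25 in NUP98-DDX10, NUP98-JARID1A and NUP98-NSD1 and adjusted p of 1.0, 0.659 and 0.979. The controls lay between the fusions at 355, 415 and 369. Day 5 NUP98-JARID1A was above them by 1.57 ± 0.25 (limma, adjusted p = 3.75e-06), and NUP98-DDX10 and NUP98-NSD1 were below (-2.18 and -3.0 ± 0.25, adjusted p = 1.78e-08 and 5.19e-11). Atxn1 overlaps Gmpr and 2 antisense transcripts on the opposite strand in GENCODE M21. Gmpr, a guanosine monophosphate reductase, had the opposite pattern, with 4.04 to 32.9 in untreated NUP98-JARID1A against 79.6 to 106 in NUP98-DDX10 (log2 difference -3.27, adjusted p = 7.12e-08).

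Of 14 listed genes around ataxin-1 and capicua, all were tested and 11 differed between the untreated fusions, as did 11 at day 5, beside 69.8% and 70.1% of all genes. Atxn1l, the close relative of ataxin-1, was also higher in NUP98-JARID1A, at 1107 to 1484 untreated against 840.2 to 918 and 746 to 828.7 in NUP98-DDX10 and NUP98-NSD1. Its difference of 0.65 untreated and 0.59 at day 5 (limma, adjusted p = 3.33e-08 and 2.11e-06) was far smaller than that of Atxn1. Etv5, a transcription factor gene that capicua is known to repress, was higher in NUP98-JARID1A by 1.53 untreated and 0.70 at day 5 (adjusted p = 8.25e-11 and 2.20e-04). Etv1, of the same family, was lowest in NUP98-DDX10, by -1.87 untreated and -4.34 at day 5 (adjusted p = 0.00110 and 1.06e-07).

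Slc43a3 (Entrez 58207, chromosome 2, 84936545 to 84958509) marked NUP98-JARID1A by its low level, and its difference had narrowed most by day 5. Untreated NUP98-JARID1A read 27.3, 53.3, 53.2 and 88.0, against 2152, 1934, 1969 and 1933 in NUP98-DDX10 and 1841, 1697, 1799.8 and 1817 in NUP98-NSD1, 34.1-fold above it as a ratio of means. At day 3 NUP98-JARID1A was still at 57.8, 69.6 and 56.2. At day 5 it read 198, 284 and 245, 4.37 times its untreated mean, while NUP98-DDX10 read 1428, 1385 and 1270.1 and NUP98-NSD1 1056, 1011 and 1131, or 68.2% and 59.6% of untreated. The gap thus narrowed from below and from above, and between days 3 and 5 rather than before.

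That change was measured within doxycycline libraries. Slc43a3 rose in NUP98-JARID1A from day 3 to day 5 by 1.96 ± 0.22 on the log2 scale (limma, adjusted p = 1.05e-06) and fell in NUP98-NSD1 by 0.78 ± 0.22 (adjusted p = 0.0227), with -0.34 ± 0.22 in NUP98-DDX10 (adjusted p = 0.646). The fall in NUP98-NSD1 was lost without replicate 1 of day 3 (0.0893), replicate 3 of day 3 (0.0657) or replicate 2 of day 5 (0.0996). The change differed between the fusions with an adjusted p of 1.90e-05, rank 2 of 12687 features, and between 2.66e-06 and 2.90e-04 over 25 other settings. The log2 difference of NUP98-JARID1A was -4.84 ± 0.19 at day 3 and -2.32 ± 0.19 at day 5 (limma, adjusted p = 2.23e-17 and 1.75e-10), a shift of 2.52 (adjusted p = 4.14e-06) of a kind called upward for 0.213% of all genes. NUP98-JARID1A was lower than the other fusions for 26.6% of all genes at day 3 and 28.9% at day 5. NUP98-JARID1A at day 5 remained below the controls, which read 1368, 1456 and 2080 (log2 difference -2.74 ± 0.22, limma, adjusted p = 3.12e-11). NUP98-NSD1 was also below them (-0.59 ± 0.22, adjusted p = 0.0241), a call lost without control replicate 3, the highest control (-0.41, 0.139), without replicate 1 of day 5 (0.0522) or without replicate 2 (0.0649). NUP98-DDX10 differed from them by -0.24 ± 0.22 (adjusted p = 0.351).

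The 5 listed transporters related to Slc43a3 were all tested, and 4 differed between the untreated fusions and 4 at day 5, beside 69.8% and 70.1% of all genes. Slc43a1, an amino acid transporter gene, lies near Slc43a3 and is described with that region. Slc43a2, another amino acid transporter, was lower in NUP98-DDX10 (-0.81 untreated and -0.97 at day 5, adjusted p = 4.13e-05 and 2.16e-05). Slc29a1, an equilibrative nucleoside transporter, was modestly lower in NUP98-JARID1A (-0.50 and -0.80, adjusted p = 2.27e-04 and 3.88e-06).

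Slc43a3 and Aplnr lie 177.851 kb apart on chromosome 2 and marked the same fusion in opposite directions. The region was therefore read gene by gene. Besides the members, 17 tested genes lay within 500 kb of either, and in untreated libraries 3 were higher and 5 lower in NUP98-JARID1A (limma, adjusted p under 0.05), beside 27.6% and 26.3% of all genes. At day 5, 5 were higher and 7 lower, beside 28.5% and 28.9% of all genes. Of the 17, 4 had an untreated log2 difference of at least 2 in NUP98-JARID1A, where 9.7% of all genes had one in some fusion. Ctnnd1, which encodes the adherens junction protein p120 catenin, read 2055 to 2617 in untreated NUP98-JARID1A, 1074 to 1269 in NUP98-DDX10 and 96.9 to 158 in NUP98-NSD1. Its difference was 2.65 untreated and 2.57 at day 5 (adjusted p = 2.28e-13 and 2.63e-11). Tfpi, a coagulation inhibitor gene, was higher by 3.68 and 3.04 (adjusted p = 9.34e-10 and 4.92e-07), and Slc43a1 was lower (log2 differences -2.42 and -2.05, adjusted p = 9.09e-05 and 0.00215). Ssrp1, 1 of the genes in the interval between the members, differed by 0.04 untreated (adjusted p = 0.450). Genes of opposite direction and genes with no call lay side by side.

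**Figure D2:**
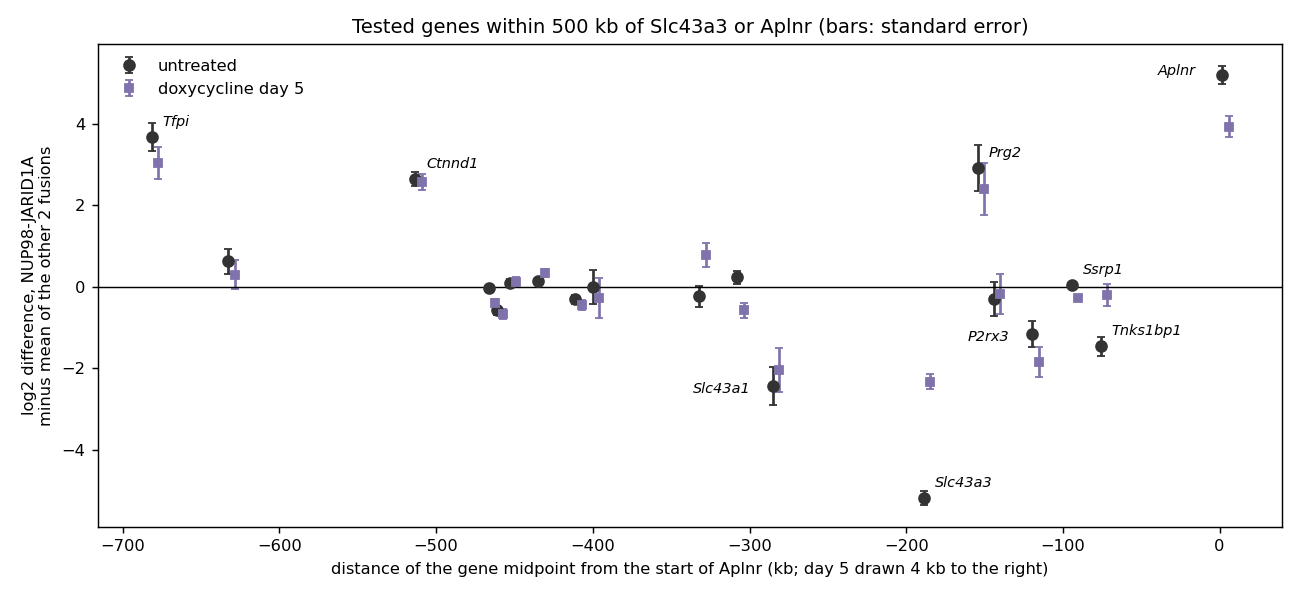
Log2 difference of NUP98-JARID1A from the mean of the other 2 fusions (bars, standard error) for Slc43a3, Aplnr and 17 other tested genes within 500 kb of either, by distance in kb from the start of Aplnr; circles, untreated; squares, doxycycline day 5, drawn 4 kb to the right. Aplnr, Ctnnd1 and Tfpi lie above 0 and Slc43a3 and Slc43a1 below it in both states, and Slc43a3 shows the large shift from -5.18 to -2.32.

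Osbpl3 (Entrez 71720, chromosome 6, 50293327 to 50456354) was low in NUP98-JARID1A, and the other fusions did not overlap either. Untreated libraries of NUP98-JARID1A read 158, 123, 149 and 146, those of NUP98-DDX10 1289, 1257, 1211 and 1369 and those of NUP98-NSD1 2339, 2180.2, 2356 and 2776. By day 5 these were 256, 217 and 214, 817, 726 and 697 and 1211, 1274 and 1183, or 159%, 58.3% and 50.7% of the untreated means. The 3 fusions kept their order with no overlap, and the fold between the means of the others and NUP98-JARID1A went from 12.8 untreated to 4.3.

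The log2 difference of NUP98-JARID1A was -3.60 ± 0.08 untreated, -2.78 ± 0.09 at day 3 and -2.06 ± 0.09 at day 5 (limma at day 3 and day 5, adjusted p = 6.25e-19 and 6.03e-16). Osbpl3 rose in NUP98-JARID1A from day 3 to day 5 by 0.46 ± 0.11 (adjusted p = 0.00321), a call lost with only the groups compared (0.101). The change in NUP98-DDX10 was -0.40 ± 0.11 (adjusted p = 0.0736 with limma and 0.0130 with DESeq2) and in NUP98-NSD1 -0.10 ± 0.11 (adjusted p = 0.624). It differed between the fusions with an adjusted p of 0.00583, and between 0.00455 and 0.0231 over 25 other settings. The controls, at 384, 417 and 331, lay between NUP98-JARID1A and the others, with day 5 log2 differences from them of 1.70 for NUP98-NSD1, 0.99 for NUP98-DDX10 and -0.72 for NUP98-JARID1A, each ± 0.11 (limma, adjusted p = 3.00e-13, 1.03e-08 and 2.03e-06).

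Of 14 listed oxysterol-binding proteins and partners 12 were tested, of which 8 differed between the untreated fusions and 9 at day 5, beside 69.8% and 70.1% of all genes, with a median largest difference of 0.52 against 0.57 over all genes. Osbp, the founding member of the family, was modestly lower in NUP98-JARID1A (-0.57 untreated and -0.37 at day 5, limma, adjusted p = 8.90e-10 and 1.27e-05). Osbpl5 was lower there by more (-1.69 and -2.42, adjusted p = 3.50e-04 and 2.74e-05), at 1.22 to 12.1 counts at day 5.

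Scmh1 (Entrez 29871, chromosome 4, 120405150 to 120530200) was close to unread in NUP98-JARID1A, and its difference was larger with doxycycline than without. Untreated NUP98-JARID1A libraries read 29.3, 11.7, 21.9 and 10.6 normalized counts, and the others 1519, 1250.1, 1309 and 1140.2 in NUP98-DDX10 and 780.1, 855, 791 and 697 in NUP98-NSD1. NUP98-JARID1A went to 5.10, 8.35 and 5.81 at day 3 and 4.86, 5.02 and 6.68 at day 5, which rest on 5 to 9 reads per library. NUP98-NSD1 read 778, 956 and 901 and NUP98-DDX10 986, 872 and 878 at day 5, near the 759, 793 and 936 of the controls.

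The fold between the mean of the other fusions and NUP98-JARID1A was 56.7 untreated, 160 at day 3 and 162 at day 5. On the log2 scale the difference of NUP98-JARID1A was -7.13 ± 0.20 at day 3 and -7.11 ± 0.20 at day 5 (limma, adjusted p = 1.18e-20 and 1.28e-20), beside -5.81 ± 0.17 untreated. With so few reads these sizes lean on the pseudocount, and with 10 in place of 1 they were -5.21 untreated, -5.98 at day 3 and -5.86 at day 5. No fusion changed from day 3 to day 5 by the test, with differences of -0.23, -0.17 and -0.16 ± 0.23 in NUP98-DDX10, NUP98-JARID1A and NUP98-NSD1 (adjusted p = 0.825, 0.654 and 0.743). Against the controls at day 5, NUP98-JARID1A was lower (log2 difference -7.0 ± 0.23, limma, adjusted p = 2.03e-19), while NUP98-DDX10 and NUP98-NSD1 differed by 0.14 and 0.08 ± 0.23 (adjusted p = 0.607 and 0.775).

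Scmh1 belongs to the Polycomb group, and 25 of 27 listed members of Polycomb repressive complex 1 and related MBT proteins were tested. Among them 16 differed between the untreated fusions and 14 at day 5, at or below the share of all genes, and 2 had an untreated difference of at least 2 on the log2 scale. Cbx6, a chromodomain subunit that binds methylated histone tails, was nearly unread in NUP98-JARID1A, at 1.01 to 17.4 untreated and 0 to 2.01 at day 5, against 136 to 224 and 290.0 to 383 in untreated NUP98-DDX10 and NUP98-NSD1. Its difference was -5.59 untreated and -6.42 at day 5 (limma, adjusted p = 4.55e-12 and 1.43e-11), and -4.09 and -3.85 with the pseudocount of 10. Like Smad1 and Acvr1, Cbx6 passed the filter through the fusions in which it is read. Cbx2, another chromodomain subunit, was lower by -1.78 and -1.24 (adjusted p = 5.93e-09 and 2.08e-05).

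**Figure D3:**
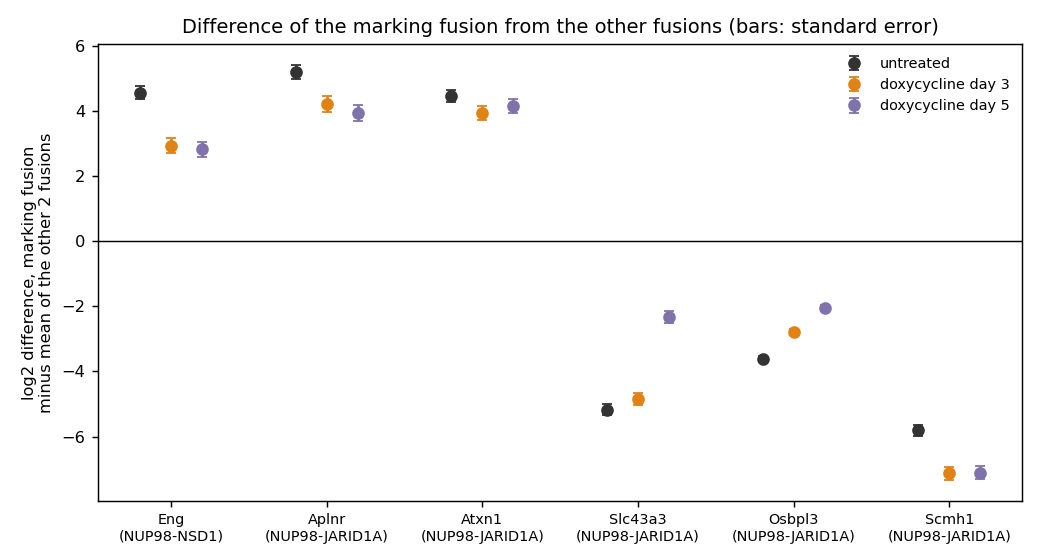
Log2 difference of each member's marking fusion from the mean of the other 2 fusions, untreated and at doxycycline day 3 and day 5; points are limma estimates and bars standard errors. The points of Eng, Aplnr, Slc43a3 and Osbpl3 move toward 0, those of Atxn1 move little and those of Scmh1 move away from it.

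Side by side, the share of the untreated log2 difference that was left at day 5 was 61.8% for Eng, 75.6% for Aplnr, 92.9% for Atxn1, 44.8% for Slc43a3, 57.1% for Osbpl3 and 122% for Scmh1. With only the 3 untreated libraries per fusion titled day 5, these shares were 61.7%, 73.9%, 90.8%, 47.8%, 56.3% and 118%. Over the 1230 tested genes with an untreated difference of at least 2, the median was 76.9%, with quartiles of 44.2% and 101%, and 26.5% had 100% or more left. The members lay on both sides of that median, Atxn1 and Scmh1 above it and Aplnr, Eng, Osbpl3 and Slc43a3 below it. Of the genes low in untreated NUP98-JARID1A the median was 70.3%, and of those high in it 84.3%. In all 6 members every library of the marking fusion stayed on its side of both other fusions at day 3 and at day 5. Of all genes, 18.4% had every day 5 NUP98-JARID1A library above the other fusions, 15.5% had every one below, and 11.5% had every NUP98-NSD1 library above. At day 3 these shares were 22.8%, 20.9% and 19.2%, and in the untreated libraries, which chose the members, 14.3%, 12.2% and 15.7%.

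**Figure D4:**
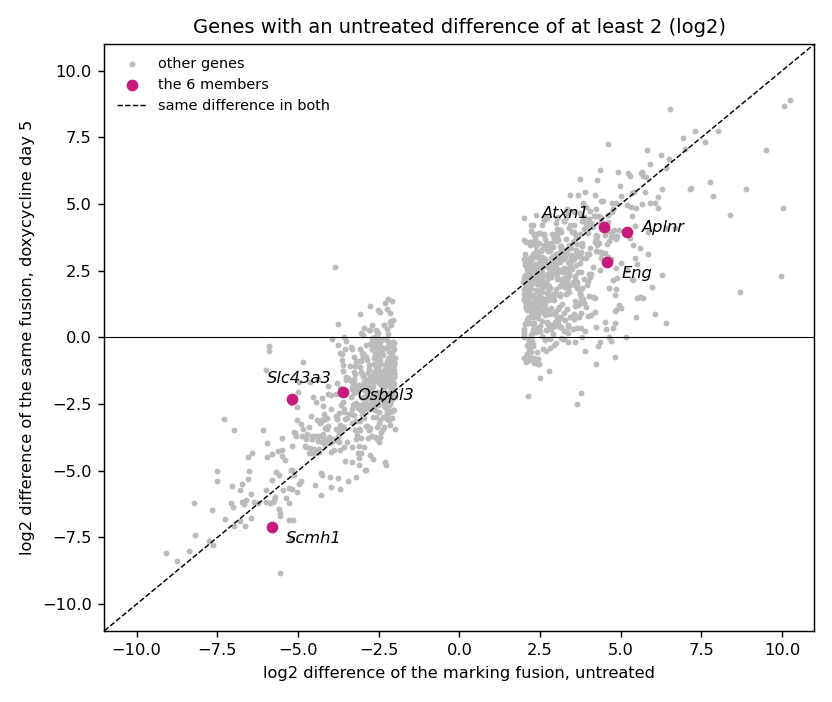
Log2 difference of the marking fusion, untreated (x axis) against doxycycline day 5 (y axis), for the 1230 genes with an untreated difference of at least 2; the dashed line marks the same difference in both. Atxn1 lies near the dashed line, Eng, Aplnr, Slc43a3 and Osbpl3 between it and 0, and Scmh1 beyond it.

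In the order of the untreated F statistic among genes with a mean above the median of 387, the members held places 1, 2, 3, 7, 8 and 9, with Bbx, Pbx3 and Cox6b2 between them. The last member inside, Atxn1, had an F of 293, and the first gene outside, Top3b, had 287. Bbx, an HMG-box factor, read 3674 to 4126 in untreated NUP98-JARID1A and 860.0 to 1134 at day 5, against 649.7 to 681 in NUP98-DDX10 at day 5. Top3b, a topoisomerase gene, read 2678 to 3459 and 924 to 1122 in the same states. For Bbx and Top3b the untreated values of the other fusions are not given here. These ranges do not show whether doxycycline removed a difference.

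The neighbourhoods of Eng, Osbpl3 and Scmh1 were read in the same way. Within 500 kb of Eng 29 genes were tested and 22 differed between the untreated fusions, beside 69.8% of all genes. Of these 29, 2 had a log2 difference of at least 2 in some untreated fusion, beside 9.7% of all genes, and 1 had it in NUP98-NSD1. Fpgs overlaps Eng on the opposite strand and was not called in NUP98-NSD1 (-0.39, adjusted p = 0.128). Near Osbpl3, 3 of 4 genes differed between the untreated fusions, and 1 had a difference of at least 2 in NUP98-JARID1A. Another, Mpp6, was lower in NUP98-JARID1A (log2 differences -1.58 untreated and -1.57 at day 5, limma, adjusted p = 2.24e-06 and 2.03e-05). Near Scmh1, 3 of 7 genes differed between the untreated fusions, and 1 had a difference of at least 2 in some fusion, though not in NUP98-JARID1A. None of Cited4, Smap2 and Hivep3 was called at day 5 in NUP98-JARID1A (limma, adjusted p = 0.654, 0.814 and 0.278).

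Across the 33 libraries, genes among the most like each member were found by Pearson's r of log2 values, which describes libraries that share fusions and is not tested. For Scmh1 they were Hmgn3 (0.98), a nucleosome-binding protein gene at 0 in all 10 NUP98-JARID1A libraries, Pkp4 (0.98) and Ppargc1b (0.98). For Aplnr they were Aldh1l1 (0.95), Nkx2-3 (0.95) and Foxq1 (0.95). The homeobox gene Nkx2-3 read 903 to 1189.6 in untreated NUP98-JARID1A, 213 to 264 at day 3 and 22.1 to 38.3 at day 5, a larger drop than that of Aplnr, and it was at 0 in the untreated libraries of the other fusions. For Atxn1 they were Adcy3 (0.97), Pcdhga12 (0.96) and Aff1 (0.96), for Slc43a3 Mdfic (0.96), Bmyc (0.96) and Plscr1 (0.96), for Osbpl3 Skida1 (0.96) and Amot (0.94), and for Eng Nono (0.94), Sgsm1 (0.93) and Gstk1 (0.92). Among the members, Aplnr and Slc43a3 had an r of -0.93, Aplnr and Atxn1 0.90, and Eng between -0.14 and 0.30 with the other 5.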

How the data were processed

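RNA-seq of 33 mouse libraries in 10 groups was analysed, and 2 ChIP-seq samples of the series were not analysed here. The values are a signal, namely counts per gene that the authors divided by a size factor per library and deposited. STAR, featureCounts and DESeq2 and the build GRCm38 are named per the submitters' processing notes, and the library kit was stranded per the labels' protocols, while the strand setting of the counting is not given in the sources used here. The deposited values were whole multiples of what 1 read was worth in 100% of cases (within 0.01 reads), which gave back the reads, 12043487 to 28903870 per library.

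Values were log2-transformed after adding 1, and the main test was a fit of 10 group means with limma (3.58.1, R 4.3.3), after a filter of at least 10 in at least 3 libraries (12682 genes and 5 constructs), with Benjamini-Hochberg adjustment over all and a threshold of 0.05. The limma tests were checked on simulated data in which a set of genes was changed in the day 5 NUP98-NSD1 group only. In the measured libraries most genes differed between the fusions, a setting that this check did not cover. Alternatives were a pseudocount of 10, no filter, quantile normalization, edgeR 4.0.16 and DESeq2 1.42.0 on the recovered reads, only the groups compared, a replicate block and leaving out each library. The members and gene lists were chosen with earlier results of these data known. The tests of whether the change from day 3 to day 5 differed between the fusions, the shares with only untreated libraries titled day 5 and the pseudocount of 10 for Smad1, Acvr1 and Cbx6 were added after seeing the data. A member's marking fusion is the one farthest from the mean of the other 2 untreated. Other genes were named as the 3 most correlated with a member, up to 3 per list or within 500 kb with the smallest adjusted p, and those next to the members in the untreated order; values of 2 such genes are left out, and Apln, Fpgs, Ssrp1 and single cell type markers were named after their values were seen. The labels do not say whether libraries of a group came from separate mice, so p-values measure the spread between these samples only. Same-numbered doxycycline libraries of different fusions at the same day did not deviate together (correlations -0.11 to 0.18 over 18 pairs). The numbers were therefore not used as pairs. Day 3 against day 5 within a fusion, and untreated and control libraries, were not checked this way. Gene positions and promoter sequences are from RefSeq GRCm38.p6.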

Additional observations from a re-analysis of the deposited data

Results flagged for a closer look

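Slc43a3 was 2152 normalized counts in 1 of the 4 untreated NUP98-DDX10 libraries, far from the other 3 for the spread of that group. It is the library titled day 3, and the other 3 are titled day 5. Of 18 groups of 4 checked this way it was the one marked, and chance marks about 1 in 20.

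The change of Slc43a3 from day 3 to day 5 of doxycycline differed between the fusions (limma, adjusted p = 1.90e-05), with a rise in NUP98-JARID1A and a fall in NUP98-NSD1. That of Osbpl3 also differed (adjusted p = 0.00583), with a rise in NUP98-JARID1A.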

How the results depend on the processing

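Over the members, no difference of a marking fusion at day 3 or day 5 lost its call or turned under any alternative run. The change from day 3 to day 5 was the least stable result. In NUP98-DDX10 118 genes were called, 283 with DESeq2, 64 without the filter, 233 with only the groups compared and 9 to 71 with a library left out. In NUP98-JARID1A 2526 became 1057 with only the groups compared, and in NUP98-NSD1 1346 became 505 to 1437 with a library left out. The count of genes whose change differed between the fusions went from 234 to 419 with only the groups compared and to 129 to 486 with a library left out, the highest without replicate 1 of NUP98-NSD1 day 5 and 483 without replicate 1 of NUP98-JARID1A day 5. For 1 fusion against the others at day 3, NUP98-DDX10 went from 3126 to 4837 with only the groups compared and 2004 to 2952 with a library left out. Against the controls with only the groups compared, NUP98-JARID1A went from 8533 to 4837 and NUP98-NSD1 from 7471 to 4510. Fits with only the groups compared estimate the spread from fewer samples. Why counts rose in some of them and fell in others was not tested.

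Signs turned for differences near 0 that were never called. For Atxn1 from day 3 to day 5 in NUP98-DDX10 the difference was 0.0106 with DESeq2 and 0.0106 with edgeR on the authors' size factors. With a library left out it ran from -0.18 to 0.15 there and from -0.36 to 0.28 in NUP98-NSD1. For Aplnr against the controls in NUP98-NSD1 it ran from -0.21 to 0.53, and for Scmh1 from day 3 to day 5 in NUP98-JARID1A from -0.30 to 0.0062. Eng and Osbpl3 from day 3 to day 5 in NUP98-DDX10 passed with DESeq2 (0.0498 and 0.0130).

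With the replicate block, 8853 genes differed between the fusions at day 5 against 8886, and it changed no call of a member. Depth limits Scmh1 in NUP98-JARID1A, which rests on 5 to 9 reads per doxycycline library.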
